A study of Mus musculus with 6 samples.

Results

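The NF-kB subunit genes Rel, Rela, Relb, Nfkb1 and Nfkb2 were examined in ATAC-seq peak lists of mouse regulatory T cells (Tregs). ATAC-seq maps open chromatin through insertion of adapters by the transposase Tn5. All peaks that overlapped the RefSeq span of one of these 5 genes, or 10 kb on either side, were taken, and peaks of the different libraries were merged where they overlapped. This gave 32 regions of the 64817 regions in the whole series. The study compared 3 libraries from Il33-deficient mice (il33-/- in a C57BL6 background, here KO) with 3 libraries from C57BL6 mice (here WT). All mice of both groups carried B16.F10 melanoma, from 300000 tumour cells injected under the skin, and 14 days later CD4+CD25+GITR+ Tregs were taken by cell sorting from the lymph nodes that drain the tumour. The labels do not say how the Il33 allele was made, nor whether replicates came from separate mice or pools, so a p-value here reflects how the libraries vary, and that variation may be technical. Age and sex of the mice are not given in the sources used here. Replicates are named by the numbers in the labels, 1, 2 and 4 for KO and 2, 4 and 6 for WT.

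NF-kB is a family of transcription factors that bind DNA as dimers at kB sites. Rel (c-Rel), Rela and Relb carry a transactivation domain, whereas Nfkb1 and Nfkb2 encode long precursors that are processed to shorter DNA-binding partners without one. In the canonical route, signals from the T cell receptor, or from the interleukin-33 receptor ST2, activate a kinase complex that frees Rela and c-Rel dimers from inhibitors, and in the non-canonical route TNF receptor family members trigger processing of the Nfkb2 precursor, the main partner of Relb. In mouse Tregs c-Rel and Rela are known for their roles in Treg development and in the maintenance of activated Tregs.

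After removal of duplicates the KO libraries held 4.72 to 10.3 M tags, with 37266 to 42738 peaks, and the WT libraries 12.9 to 15.2 M tags, with 52836 to 55939 peaks. The KO libraries were all the shallower ones, so in numbers of peaks the effects of depth and of genotype cannot be told apart. Where a list lacks a region, the region was not called with that many tags and may still have been open. Nor can fewer cells with an open region be told apart from less signal per cell in such bulk samples. Of the 7 Treg markers (Foxp3, Il2ra, Tnfrsf18, Ctla4, Ikzf2, Cd4 and Cd3e), all 7 had peaks, with 46 to 49 peaks summed over the list in KO and 59 to 65 in WT libraries. Markers of other cells held fewer, with 8 to 12 peaks in KO and 15 to 19 in WT at 5 B cell markers, 5 to 6 in KO and 6 in each WT library at 5 myeloid markers, 3 to 6 in KO and 7 to 9 in WT at 5 CD8 T and NK markers, and 7 to 10 in KO and 8 to 11 in WT at 5 melanoma markers. The marker genes Ms4a1, Csf1r, Lyz2, Adgre1, Ncr1, Dct and Tyr had no peak in any library. These sums were not scaled to the number or length of the genes, and single genes of different lists overlapped. Per library, the B cell marker Cd79a had 3 to 6 peaks and the melanoma marker Mitf 2 to 5. Among Treg markers Foxp3 had 4 to 6, Cd3e 3 to 4 and Ikzf2 13 to 25. The sums therefore do not measure the purity of the sorted cells. Exons and introns were not used here, and positions are given from the ends of each gene. Peaks within 10 kb can belong to a neighbouring gene, and the part of other cells in the results below was not tested.

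Promoter sequences were available for Rel, Rela and Nfkb2, from RefSeq on GRCm38.p6, each window running from 250 bases before to 50 bases after a start site. They are shown because the strongest region of each of these genes lies over them, and because 2 of the 3 genes hold the recognition sequence of their own family there. Capitals mark matches to the kB consensus, searched on both strands with overlapping matches joined.
Rel, chr11:23770920-23771219, minus strand: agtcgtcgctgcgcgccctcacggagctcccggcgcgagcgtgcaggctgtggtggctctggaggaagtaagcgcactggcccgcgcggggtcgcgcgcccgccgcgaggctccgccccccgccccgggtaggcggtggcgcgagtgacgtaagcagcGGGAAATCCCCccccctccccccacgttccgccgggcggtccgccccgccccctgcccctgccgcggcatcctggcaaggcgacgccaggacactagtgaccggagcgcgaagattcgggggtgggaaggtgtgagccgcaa
Rela, chr19:5637291-5637590, plus strand: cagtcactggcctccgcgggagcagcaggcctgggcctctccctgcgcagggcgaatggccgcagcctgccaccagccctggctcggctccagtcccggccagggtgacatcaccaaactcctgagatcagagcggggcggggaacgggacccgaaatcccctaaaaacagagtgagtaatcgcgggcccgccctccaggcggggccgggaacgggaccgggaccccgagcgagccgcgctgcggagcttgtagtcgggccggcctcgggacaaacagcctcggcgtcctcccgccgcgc
Nfkb2 first start, chr19:46304487-46304786, plus strand: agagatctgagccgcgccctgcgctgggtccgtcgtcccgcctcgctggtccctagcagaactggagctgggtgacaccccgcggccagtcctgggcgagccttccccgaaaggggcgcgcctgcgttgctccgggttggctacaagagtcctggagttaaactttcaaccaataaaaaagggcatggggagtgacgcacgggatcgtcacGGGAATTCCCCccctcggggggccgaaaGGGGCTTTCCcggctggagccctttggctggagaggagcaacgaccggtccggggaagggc
Nfkb2 second start, chr19:46305445-46305744, plus strand: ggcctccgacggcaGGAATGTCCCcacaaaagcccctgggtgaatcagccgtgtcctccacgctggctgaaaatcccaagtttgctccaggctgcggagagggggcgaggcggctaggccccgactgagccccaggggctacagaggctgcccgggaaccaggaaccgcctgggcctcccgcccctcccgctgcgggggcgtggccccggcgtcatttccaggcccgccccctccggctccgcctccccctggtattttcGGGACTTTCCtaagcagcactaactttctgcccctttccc

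The Rel window held 1 match, GGGAAATCCCC, centred 87 bp before the start site. Each of the 2 Nfkb2 windows shown held 2 matches. At the first start these were GGGAATTCCCC, centred 34 bp before the site, and GGGGCTTTCC, 6 bp before it, and at the second start GGAATGTCCC, 232 bp before, and GGGACTTTCC, 14 bp after the site. The window of the remaining Nfkb2 start, which overlaps that of the second, held the same GGGACTTTCC as its single match. No match was found in the Rela window, which says only that these letters are not in it. For comparison, 8.46% of 32851 RefSeq promoter windows held at least 1 match to the kB consensus and 0.521% held at least 2. Of the other motifs searched on both strands, GGGCGG occurred in the Rel, Rela and second Nfkb2 windows (35.7% of all windows) and CCAAT in the first Nfkb2 window alone of the 4 (37.4%). GGAAA, which can overlap a kB match, was in the Rel window and in both Nfkb2 windows (61.3%). TGANTCA was in the second Nfkb2 window alone of the 4 (7.81%) and TGTGGT in the Rel window alone (16.8%). A match is a description of the letters and does not show binding.

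**Figure D1:**
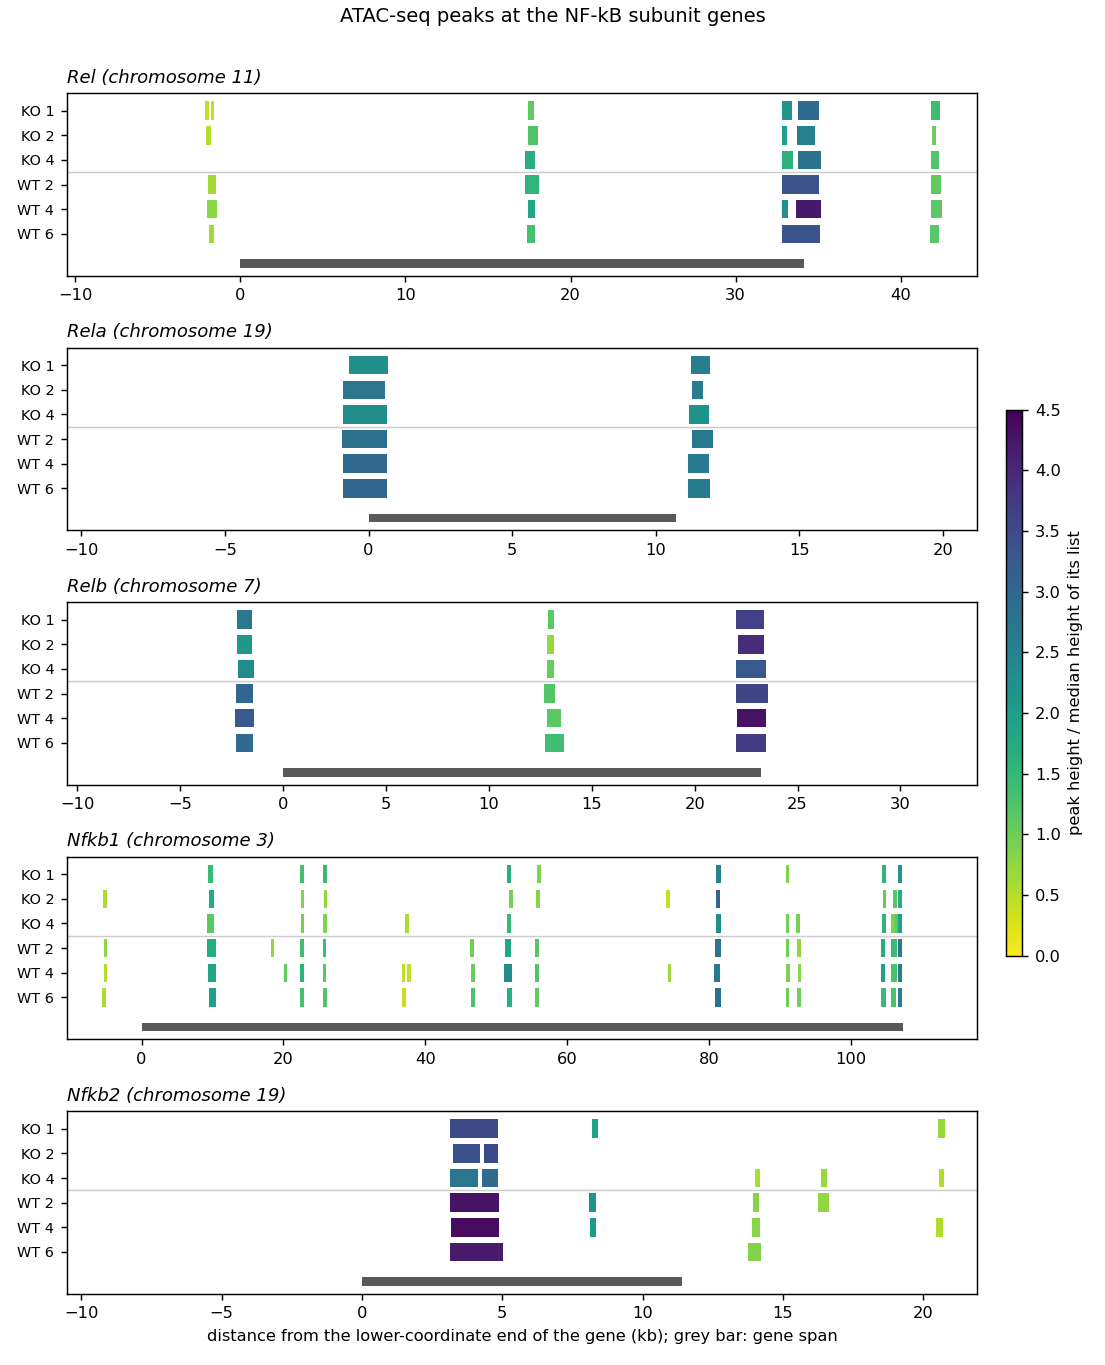
Peaks of each library (rows, KO above WT) within 10 kb of the 5 genes, by distance in kb from the lower-coordinate end of the gene, with colour giving peak height over the median height of its list and the grey bar the gene span (bars have a minimum drawn width). Rela and Relb show the same regions in all 6 libraries, and Nfkb1 shows regions along the whole gene.

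Peak heights are the authors' own values, the pile of extended tags at each summit. They are given here as scaled heights, that is, divided by the median height of the same list, so that 1 is a typical peak of that library. Where a region held several peaks of a library, the higher one was used. The lists differ in length, and on this scale KO heights were lower in most of the genome: over the 29419 regions called in all 6 libraries the median KO minus WT difference was -0.32 on the log2 scale, and in 48.2% of them every KO library lay below every WT library, against 0.197% with every KO library above. Differences are therefore read against -0.32, and each is also given after scaling by the median height of the regions called in all 6 libraries (the shared-region scale). On that scale the median difference was 0.03, with 6.9% of regions lower and 13.7% higher in every KO library. Scaled heights are descriptions and were not tested between genotypes.

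Rel, which encodes c-Rel, lies on chromosome 11 (23736847 to 23770969, GRCm38.p6) on the minus strand, so that its start is at the higher coordinate. It had 4 regions. The start region (23769656 to 23772015, 2360 bp) was the strongest, with scaled heights of 2.95, 2.56 and 2.78 in the KO libraries and 3.36, 4.19 and 3.34 in the WT libraries. Every KO library lay below every WT library, at 2.77 ± 0.194 in KO against 3.63 ± 0.482 in WT (SD, n = 3 each), but the log2 difference of -0.39 was close to the -0.32 of all shared regions and was -0.04 on the shared-region scale, where the groups overlapped. In all 3 KO libraries and in WT replicate 4 this region was called as 2 peaks, with a lower summit 1107 to 1212 bp inside the gene from the start site, and in WT replicates 2 and 6 as 1 peak. The higher summits of KO replicate 4 and of WT replicates 4 and 6 lay 97 to 106 bp before the start site, within 14 bp of the kB match in the printed sequence. Those of KO replicates 1 and 2 and WT replicate 2 lay 275 to 372 bp from it.

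Another Rel region lies 7.67 kb before the start (23778635 to 23779344). Its scaled heights were 1.40, 1 and 1.22 in KO and 1.11, 1.11 and 1.17 in WT. The groups overlapped on this scale. Of the 16 regions called in all libraries, this one had the highest log2 difference there (0.08) and the only positive one. That was higher than 97.6% of all shared regions, but the highest of 16 ranks high in any set. On the shared-region scale all KO libraries lay above all WT libraries, with 1.04, 0.8 and 0.933 in KO and 0.689, 0.638 and 0.723 in WT. The deposited fold enrichment over local background, a ratio that the authors' peak caller gives for each peak, was likewise 7.14 to 8.24 in KO and 6.41 to 6.61 in WT, an order found in 4.54% of shared regions. Inside the gene, 16 kb from the start, a region at 23754073 to 23754926 had 1.10, 1.25 and 1.70 in KO and 1.57, 1.81 and 1.31 in WT, and the groups overlapped. The weakest Rel region, 1.44 kb past the lower end, was called in KO replicates 1 and 2 at 0.45 and 0.5 and in all 3 WT libraries at 0.607, 0.778 and 0.621.

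Rela encodes the other main partner of canonical dimers and lies on chromosome 19 (5637442 to 5648134, plus strand), the chromosome that also carries Il33. It had 2 regions, and both were called in all 6 libraries as 1 peak each. At the start (5636529 to 5638124) the scaled heights were 2.25, 2.75 and 2.3 in KO and 2.86, 3 and 3.03 in WT, so KO lay below WT by -0.29, close to the shift of all regions (0.06 and overlapping on the shared-region scale). All 6 summits lay 110 to 132 bp before the start site. The other region begins 0.425 kb past the end of Rela (5648559 to 5649429), between Rela and Sipa1, and was about as strong, at 2.60, 2.63 and 2.22 in KO and 2.68, 2.67 and 2.62 in WT. It was higher in all KO libraries on the shared-region scale (1.93, 2.1 and 1.70 in KO and 1.67, 1.53 and 1.62 in WT), while its fold enrichment overlapped between the groups. The 917 shared regions of chromosome 19 had a median difference of -0.33, near that of all regions.

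Relb encodes the transactivating partner of the non-canonical route and lies on chromosome 7 (19606217 to 19629438). Its 3 regions were each called in all 6 libraries. The strongest spans the higher-coordinate end of the gene (19628214 to 19629779), with 3.65, 3.94 and 3.26 in KO and 3.57, 4.30 and 3.72 in WT. The groups overlapped, and on the shared-region scale every KO library was higher (2.70, 3.15 and 2.5 in KO and 2.22, 2.47 and 2.3 in WT). Fold enrichment was also higher in every KO library, with 7.88 to 9.58 in KO and 6.87 to 7.49 in WT, beside 4.54% of shared regions with that order and 20.1% with the opposite one. The region at 19603886 to 19604801, 1.42 kb below the lower end, lies over the promoter window of the neighbouring gene Clasrp and had 2.70, 2.13 and 2.35 in KO and 3.04, 3.26 and 2.97 in WT, a difference of -0.37 that was -0.03 with overlapping groups on the shared-region scale. The third region, inside the gene at 19618895 to 19619868, was of typical height, at 1.15, 0.688 and 1.04 in KO and 1.21, 1.15 and 1.38 in WT. Its peaks were shorter in KO, covering 325, 352 and 308 bp in KO and 514, 668 and 937 bp in WT, an order found in 40.3% of shared regions, and its opposite in 0.238%.

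Nfkb1 encodes the precursor of the DNA-binding partner of Rela and c-Rel. It lies on chromosome 3 (135584655 to 135691969) and, with a span of 107 kb, had 18 regions, more than 98.4% of the 16242 protein-coding genes with a peak. Per 10 kb of window it had 1.41 regions, against a median of 0.680 over these genes, and ranked above 88.4% of them. Of the 18 regions, 7 were called in all 6 libraries, 6 in all WT libraries but not in all KO libraries, and 5 in fewer than 3 WT libraries. The strongest lies inside the gene at 135665409 to 135666332, 25.6 kb from the higher end, with 2.5, 3.13 and 2.26 in KO and 2.75, 2.70 and 2.86 in WT. These groups overlapped on both scales. At the higher end the region at 135691326 to 135691837 had 2.1, 1.69 and 1.91 in KO and 2.68, 2.59 and 2.55 in WT, with no overlap and a difference of -0.46, which was -0.11 and overlapping on the shared-region scale. Its neighbour at 135690355 to 135691199 was called in KO replicates 2 and 4 at 1.19 and 1.17 and in all WT libraries at 1.43, 1.30 and 1.28.

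The other 5 Nfkb1 regions called in all libraries lie between 135593945 and 135689709, with scaled heights of 0.75 to 1.75 in KO and 1.19 to 2.33 in WT, and each overlapped between the groups. The lowest log2 difference of the 16 shared regions was among them, at 135635811 to 135636899 (-0.53), with 1.70, 0.938 and 1.48 in KO and 1.82, 2.33 and 1.66 in WT. This difference was still higher than 18.97% of all shared regions. On the shared-region scale it was -0.18, and the groups overlapped there too. Peaks of this region covered 539, 320 and 604 bp in KO and 902, 1089 and 683 bp in WT. That order was found in 40.3% of shared regions, and its opposite in 0.238%.

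One Nfkb1 region was called in no KO library and in all 3 WT libraries, at 135630978 to 135631424, 46.3 kb from the lower end. Its scaled heights were 0.964, 1.04 and 1.28 in WT, close to the middle of the lists, and its mean of 1.09 was higher than 89.4% of the 3022 regions of the genome with this pattern, whose median was 0.546. Such regions made up 4.66% of all 64817. Some regions of Nfkb1 with similar WT heights were called in part of the KO libraries: the one at 135640158 to 135640633 (1.18, 1.22 and 1.07 in WT) in KO replicates 1 and 2, at 0.850 and 0.813, and the one at 135675506 to 135675814 (0.964, 0.889 and 1 in WT) in KO replicates 1 and 4, at 0.850 and 0.957. The slightly higher one at 135610191 to 135610656 (1.43, 1.19 and 1.24 in WT) was called in all 3 KO libraries, at 1.45, 0.75 and 0.87. The WT-only region kept its 3 WT calls with peaks of a q-value of at most 0.001 and with lists of equal length. Both settings only remove peaks, so its absence from the KO lists could not change and says nothing about depth. A single region in 3 against 3 libraries cannot reach a p below 0.1.

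Nfkb2 encodes the precursor processed in the non-canonical route and lies on chromosome 19 (46300994 to 46312400, plus strand). It had 5 regions, of which 1 was called in all 6 libraries, and per 10 kb of window it had 1.59 regions, more than 92.1% of genes with a peak. That count includes 3 regions past the gene end, inside the neighbouring gene Psd. The shared region, as merged over libraries (46304119 to 46306007, 1889 bp), covers the 3 start sites of the promoter table. Of these the third, at 46305930, lay inside the peak of WT replicate 6 alone. The region also overlaps the promoter window of the neighbouring lncRNA gene 4833438C02Rik. The RefSeq span of Nfkb2 begins 3.13 kb before this region, so the first start site here is the first in that table and not the end of the span. The shared region was the highest of the 32 regions averaged over all libraries, with 3.50, 3.50 and 2.96 in KO and 4.29, 4.37 and 4.17 in WT. Every KO library lay below every WT library by -0.37 on average, which was -0.02 with overlapping groups on the shared-region scale.

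The highest point of this Nfkb2 region lay at different start sites in KO and WT. In all 3 KO libraries the highest summit lay 35 to 39 bp before the second start site, at 46305656 to 46305660, and in all 3 WT libraries it lay 54 to 99 bp before the first start site, at 46304638 to 46304683. The nearest KO and WT summits were 973 bp apart, and in both groups the summits lay 15 to 60 bp from a kB match of the sequences printed above. KO replicates 2 and 4 were called as 2 peaks, one over each site, and their 2 summits were nearly level, with 56 and 54 tags in replicate 2 and 68 and 63 tags in replicate 4, the second site first. A region with 2 or more peaks in a KO library and 1 in each WT library was seen in 8.16% of shared regions, and the opposite in 2.84%. KO replicate 1 had 1 peak, with 70 tags at the second site, and the WT libraries 1 peak each, with 120, 118 and 121 tags at the first site. The lists give no height for the lower summit of a single peak, so the height at the other site is not known in these 4 libraries. Of the 29419 regions called in all libraries, 13 (0.0442%) had KO and WT summits set apart by 500 bp or more, and 9 of the 2161 that were at least 1500 bp long (0.416%). This measure was chosen after the values were seen.

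**Figure D2:**
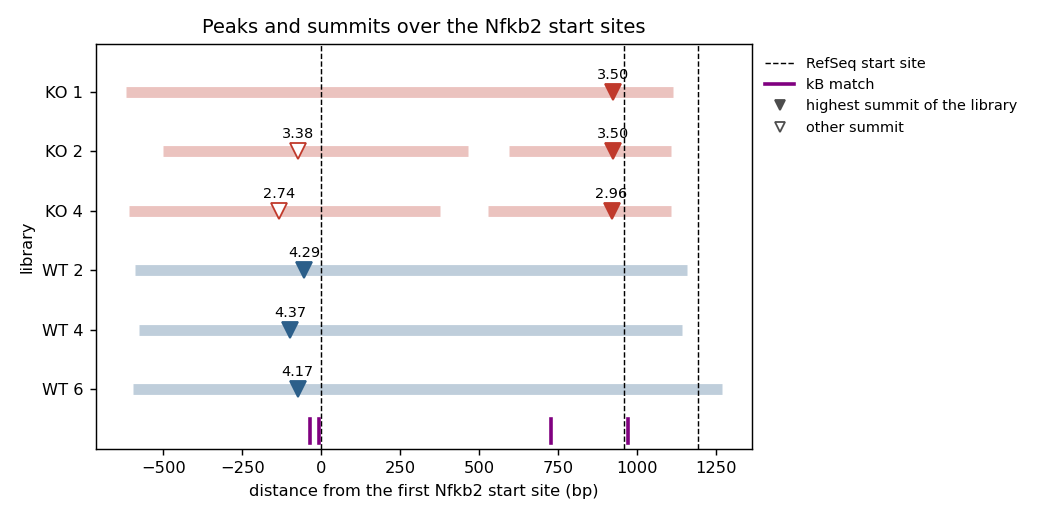
Peaks (bars) and summits (triangles, filled for the highest of each library, with scaled height printed) over the Nfkb2 start sites, by distance in bp from the first start site, with KO libraries above WT libraries and start sites and kB matches marked. Filled triangles lie next to the second start site in the 3 KO libraries and next to the first in the 3 WT libraries.

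The other 4 Nfkb2 regions varied between libraries of the same genotype. The one inside the gene at 46309086 to 46309389 was called in KO replicate 1 at 1.90 and in WT replicates 2 and 4 at 2.18 and 2.07. Its fold enrichment was 3.46 in KO replicate 1 and 3.26 and 2.85 in these WT libraries. The remaining 3 regions lie 2.33, 4.84 and 9.05 kb past the gene end, inside the neighbouring gene Psd. They were weak, at 0.522 to 0.7 in KO and 0.519 to 0.828 in WT, and were called in 1 KO and 3 WT, 1 KO and 1 WT, and 2 KO and 1 WT libraries.

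**Figure D3:**
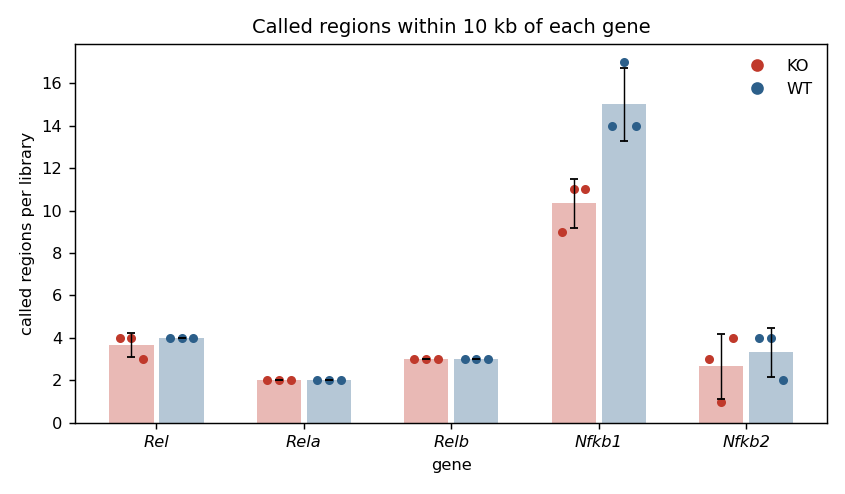
Called regions within 10 kb of each gene per library (points, KO left and WT right of each pair, with bars for the mean and lines for the SD, n = 3 each). The KO and WT points separate at Nfkb1, with 9 to 11 in KO and 14 to 17 in WT, and coincide at Rela and Relb.

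In numbers of peaks the groups separated at 1 of the 5 genes. Nfkb1 had 9, 11 and 12 peaks in KO and 14, 17 and 14 in WT, that is 10.7 ± 1.53 on average in KO libraries and 15 ± 1.73 in WT libraries (mean ± SD, n = 3 each), a difference of -4.33 (two-sided exact permutation p = 0.1, the smallest 3 against 3 allows, and adjusted p = 0.629 by Benjamini-Hochberg over 16242 genes). Peak numbers were lower in every KO library at 15.5% of these genes and higher at 0.388%. When each list was shortened to its 37266 most significant peaks, Nfkb1 had 9, 11 and 11 peaks in KO and 12, 9 and 11 in WT, and the groups overlapped, and in such lists 1.7% of genes were lower and 1.84% higher in every KO library. Rel had 6, 5 and 4 peaks in KO and 4, 5 and 4 in WT (exact permutation p = 0.7), and counted as called regions, which joins peaks split within a region, 4, 4 and 3 in KO and 4 in each WT library. By called regions 17.2% of genes were lower and 0.0185% higher in every KO library. Nfkb2 had 3, 2 and 5 peaks in KO and 4, 4 and 2 in WT (exact permutation p = 1). Rela had 2 and Relb 3 peaks in each of the 6 libraries (exact permutation p = 1 each).

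Peaks covered fewer bases in all KO libraries at each of the 5 genes, an order found at 65.4% of genes with a peak, and its opposite at 0.0431%. Nfkb1 had 3903, 4192 and 5455 bp covered in KO and 7311, 8204 and 7413 bp in WT. The narrowest margin was at Rela, with 2024, 1811 and 2256 bp in KO and 2282, 2295 and 2294 bp in WT. Within the 16 shared regions, peaks covered fewer bases in every KO library at 7 regions (43.8%, against 40.3% of all shared regions), 4 of them at Nfkb1, and overlapped at 9.

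Of the 32 regions, 16 (50%) were called in all 6 libraries, against 45.4% of all 64817 regions. All 3 WT libraries shared 24 regions, of which 16 (66.7%) were found in each KO library and 1 in none, beside 67.6% and 6.95% of the regions of the genome. None was called in KO libraries alone (3.17% of all regions were, and 0.0185% in each KO library and in no WT library). Another 3 (9.38%), all at Nfkb1, were called in 1 or 2 WT libraries and in no KO library, against 20.9% of all regions.

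**Figure D4:**
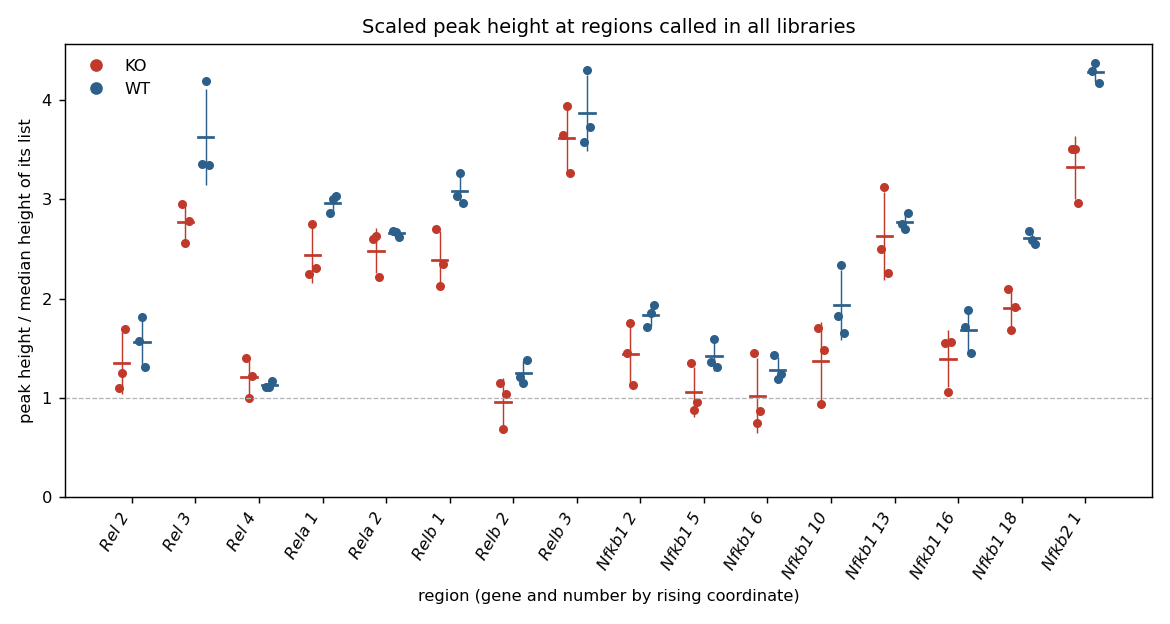
Scaled height at the 16 regions called in all libraries, named by gene and by rising coordinate (points are libraries, KO left and WT right, with horizontal lines for means and vertical lines for SDs, n = 3 each, and the dashed line at 1 for the median peak). KO points lie below all WT points at 5 regions, among them the Nfkb2 starts with 2.96 to 3.50 in KO and 4.17 to 4.37 in WT.

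Among the 16 shared regions, scaled height was lower in every KO library at 5 and higher at none, against the background of 48.2% and 0.197%. The 5 were the start regions of Rel, Rela and Nfkb2, the region at the higher end of Nfkb1 and the one at the Clasrp promoter near Relb. On the shared-region scale none was lower (6.9% of all shared regions) and 3, or 18.8%, were higher in every KO library (13.7%), the distal Rel region, the region past the end of Rela and the one at the higher end of Relb. The median difference over the 16 was -0.37, against -0.32 over all shared regions, and on the shared-region scale it was -0.02, against 0.03. Per gene, the mean log2 scaled height over shared regions differed by -0.18 at Rel, -0.20 at Rela, -0.29 at Relb, and -0.37 at both Nfkb1 and Nfkb2. All but Rel had every KO library below every WT library, an order seen at 68.6% of 14324 genes, and its opposite at 0.0628%. On the shared-region scale these differences were 0.17, 0.15, 0.06, -0.02 and -0.02, with Rel higher in every KO library, as at 17.9% of genes, and the other 4 overlapping (6.88% of genes were lower there).

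**Figure D5:**
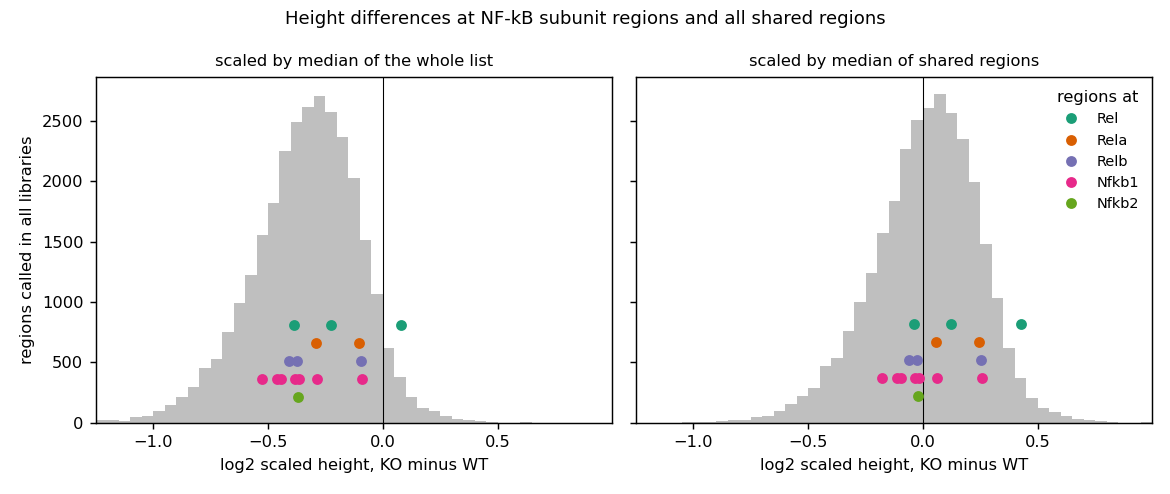
Log2 scaled height, KO minus WT, of all 29419 regions called in every library (grey histogram, end bins hold values beyond the axis) and of the 16 regions at the 5 genes (coloured points, vertical position arbitrary), scaled by the list median (left) and by the shared-region median (right). The rightmost point is the distal Rel region at 0.08 and 0.43. It was higher than 97.6% of all shared regions, but the highest of 16 ranks high in any set.

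Averaged over all 6 libraries, the highest shared region reached a scaled height of 3.8 at Nfkb2, 3.74 at Relb, 3.20 at Rel, and 2.70 at both Nfkb1 and Rela, above 77.4%, 76.1%, 59.1%, 43.5% and 43.5% of genes with a shared region, whose median was 2.92. Relb was above Rel in each of the 6 libraries, and Rel was above Rela and above Nfkb1 in 5 of 6, all but KO replicate 2. Nfkb1 and Rela overlapped in both genotypes. By library, Rela was above Nfkb1 in each WT library and in KO replicate 4, and below it in KO replicates 1 and 2. Within a library, where no scaling enters, the Relb region was the higher in each KO library (3.65, 3.94 and 3.26 against 3.50, 3.50 and 2.96 at Nfkb2) and the Nfkb2 region in each WT library (4.29, 4.37 and 4.17 against 3.57, 4.30 and 3.72 at Relb), an order noticed in the values and not tested. The Nfkb2 heights compared here lay at the second start site in KO and at the first in WT.

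The wider pathway was described with 57 other genes, all of which had a peak. Peak numbers were lower in every KO library at 11 of them (19.3%, against 15.5% of genes with a peak) and higher at none. The lowest p of the exact permutation test after adjustment over all genes was 0.629. With 3 against 3 libraries this p cannot go below 0.1, so no gene could pass. The median difference was -0.667 peaks over the 57 genes, against -0.333 over all genes with a peak. The 57 genes were not matched to all genes by number of peaks, on which such differences and shares can depend. Among 10 genes of NF-kB inhibitors and feedback 3 were lower, with Tnip1, which binds the ubiquitin editor Tnfaip3, at 7 ± 1 peaks in KO and 11.7 ± 0.577 in WT, and Nfkbie and Tnip2 the others, at 5.67 ± 0.577 and 3 ± 0 in KO and 7.33 ± 0.577 and 4 ± 0 in WT. On the route from the interleukin-33 receptor, 1 of 8 was lower, Il1rl1, the ST2 gene itself, with 6.67 ± 1.53 peaks in KO and 11.3 ± 1.53 in WT. On the T cell receptor route the co-stimulatory receptor gene Cd28 was lower (8 ± 1 in KO and 11 ± 0 in WT). The non-canonical route had 2 of 12, Birc3, a ubiquitin ligase gene (3.67 ± 1.53 in KO and 6.67 ± 0.577 in WT), and Map3k14, which encodes the kinase NIK (4 ± 0 in KO and 6 ± 1 in WT). Of 12 genes known as NF-kB targets 3 were lower. Ccr7, a chemokine receptor gene, had 4 ± 0 peaks in KO and 7 ± 1 in WT, the signalling adaptor gene Traf1 had 6 ± 1 in KO and 8 ± 0 in WT, and Foxp3, the lineage factor of Tregs, had 4.67 ± 0.577 in KO and 6 ± 0 in WT. Of 10 genes of the kinase complex and its ubiquitin adaptors none was lower (mean ± SD, n = 3 each throughout).

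The genes whose summed scaled height was most like that of each subunit gene over the 6 libraries, by the root mean square log2 difference among 14463 genes, were Scaf4, Golga1 and Actr3 for Rel (0.12 to 0.13), Higd1a, Dffa and Adpgk for Rela (0.06), Zfp174, Nup210l and 2610028H24Rik for Relb (0.04), Hdac7, Shisa5 and Smg6 for Nfkb1 (0.05 to 0.07) and Usf3, Tceanc2 and Limd2 for Nfkb2 (0.17 to 0.18). For Nfkb1 the sums were 13.8, 13.1 and 14.7 in KO and 20.3, 22.6 and 19.5 in WT, and for Hdac7 14.5, 13.2 and 14.0 in KO and 20.9, 21.6 and 19.6 in WT.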

How the data were processed

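Peak lists of 6 ATAC-seq libraries, 3 KO and 3 WT, were analysed. The submitters' processing notes name mm10, Bowtie2 2.3.1 and Picard 1.88. Per the file headers, peaks were called by the authors on each library alone with MACS 2.1.1.20160309, at a q-value of 0.05, with a tag shift of -100 bp, an extension size of 200 bp, 1 tag per position and a local background of 10000 bp. The deposited pileup is a signal (tags at the summit, not scaled to depth), the deposited fold enrichment a ratio to the local background, and its significance is deposited as −log10 of the p-value and of the q-value.

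Overlaps of 1 bp or more joined peaks into a region. Gene spans, start sites and sequences came from RefSeq tables of GRCm38.p6, the assembly behind mm10, with 21883 protein-coding genes. Relb and Nfkb1 are named without promoter sequence. For numbers of peaks a two-sided exact permutation test over all 20 assignments was used, with Benjamini-Hochberg adjustment over the 16242 genes with a peak. Alternatives were a stricter q-value, lists of equal length, narrower windows, other height scales, windows around summits, a replicate block and leaving out each library. The merging of peaks was checked on made-up intervals, and the permutation test on simulated counts without a depth difference between groups. The other steps were not part of that check. Scripts ran in Python 3.11.15, with statsmodels 0.14.6 for adjustment, pandas 2.3.3 for tables, NumPy 2.4.6 for the permutations and Matplotlib 3.10.9 for figures. Named were the 5 genes, their regions, up to 3 genes per list with separated peak numbers by size of difference, and the 3 most similar genes each. A gene that the rule names is not reported here. The members and lists were chosen with earlier results of these data known.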

Additional observations from a re-analysis of the deposited data

How the results depend on the processing

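Numbers are KO minus WT. Differences in peaks at Rela and Relb stayed at 0 under every setting tried, and that at Nfkb1 stayed negative, from -5 to -3.33 with 1 library left out (exact permutation p = 0.2 without WT replicate 4, 0.1 otherwise) and -0.333 in equal-length lists (p = 1). At Rel, the difference of 0.667 peaks was 0 with a q-value of at most 0.001, -0.333 in called regions (chosen after seeing the data) and 0.167 to 1.17 with 1 library left out. At Nfkb2, the difference of 0 became -0.667 with that q-value, 0.667 in equal-length lists, -0.333 with 5 kb on each side, 0.333 in the gene span alone, -0.667 in called regions, and -0.833 to 0.667 with 1 library left out. With libraries paired by shared replicate number (replicate block, 2 pairs), the peak differences were 0 at Rel, -4 at Nfkb1 and -0.5 at Nfkb2. Same-numbered libraries did not deviate together (r = -0.02 for number 2 and -0.05 for number 4 across shared regions). The labels do not say whether equal numbers mark a pair, and with 2 such pairs these values cannot decide it.

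Log2 height differences rested on the scale. On the shared-region scale they were 0.17 at Rel, 0.15 at Rela, 0.055 at Relb, -0.018 at Nfkb1 and -0.022 at Nfkb2. Scaled by tag number they were 0.19, 0.17, 0.078, 0.0047 and 5.02e-05, from fold enrichment -0.016, 0.074, -0.021, -0.054 and 0.021, and in equal-length lists 0.17, 0.16, 0.060, -0.013 and -0.018, in the same order. In the gene span alone Rela had -0.29 and Rel -0.31, and Rel had -0.31 with 5 kb on each side too, which leaves out the distal Rel region. With 1 library left out they ranged from -0.24 to -0.10 at Rel, -0.26 to -0.14 at Rela, -0.37 to -0.21 at Relb, -0.48 to -0.29 at Nfkb1 and -0.41 to -0.29 at Nfkb2. WT-only regions numbered 2 in place of 1 with a q-value of at most 0.001, and with 1 library left out 1 to 3, namely 3 without KO replicate 4 and 2 without KO replicate 2 or WT replicate 2, while regions called in every library numbered 16 to 18. KO-only regions numbered 0, and 1, at the second Nfkb2 start, in 200 bp windows around summits. The cause of these changes was not tested. The shallower KO libraries limit all of these comparisons.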
